A study of Mus musculus with 8 samples.

Results

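The genes of autophagy were followed in the small intestine of suckling mice given arsenic or vehicle. The set held 38 of the 24411 gene symbols in the count table, namely all 18 symbols that start with Atg and a digit plus 20 named genes of the same machinery. All 38 passed the filter on low counts and stood among the 15298 genes tested. Every mouse was of the hUGT1 transgenic line, which carries the human UGT1 locus, was 14 days old and therefore still suckling, and was labelled with a time of 24 h. The arsenic group received 10 mg/kg, and the other group received vehicle. Each group had 12 mice, and the RNA of 3 of them was combined into a pool, so that 4 arsenic pools were compared with 4 vehicle pools. A difference between single animals within a pool cannot be seen, and the labels name neither the stretch of intestine taken nor the sex of the mice.

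Autophagy wraps cytoplasm, worn organelles or protein aggregates in a new double membrane, the autophagosome, which then fuses with the lysosome. A kinase complex around ULK1 starts the process, a lipid kinase complex around VPS34 marks the membrane with the lipid PI3P, ATG9 vesicles and ATG2 proteins supply membrane, and ubiquitin-like conjugation attaches ATG8 proteins to it. Cargo receptors then tie selected cargo to the ATG8 proteins. In the small intestine autophagy is best known from the secretory Paneth cells, and suckling enterocytes hold large lysosomes that digest milk proteins taken up whole.

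Most of the machinery was lower after arsenic. Of the 38 genes 23 fell and 5 rose at an adjusted p below 0.05 (edgeR's quasi-likelihood test, adjusted over all tested genes), which is 60.5% and 13.2% of them. Over all 15298 tested genes 33.0% were called lower and 32.3% higher. The share of autophagy genes that fell thus lay above the background and the share that rose below it. Calls depend on level, and 37 of the 38 genes had a mean of at least 5 CPM (counts scaled to the library total, adjusted by TMM). Among the 11687 genes at that level 34.5% were called lower and 39.5% higher. The median log2 change, arsenic over vehicle, was -0.21 for the autophagy genes and -0.03 for all tested genes. Changes were small: in a test against a 1.5-fold change, 2 genes were lower (Calcoco1 and Wipi1) and 1 was higher (Atg9b), which is 5.26% and 2.63% of the set. The background of that test was 5.32% lower and 5.33% higher.

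The 4 arsenic pools lay entirely below the 4 vehicle pools for 25 autophagy genes (65.8%, with a background of 29.3%) and entirely above them for 6 (15.8%, with a background of 30.1%). The genes that rose were Atg9b, Atg4d, Atg4a, Atg3 and Atg5. The 10 that passed in neither direction were Atg101, Becn1, Atg9a, Atg2a, Atg7, Atg16l1, Atg4b, Atg4c, Gabarap and Sqstm1.

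**Figure D1:**
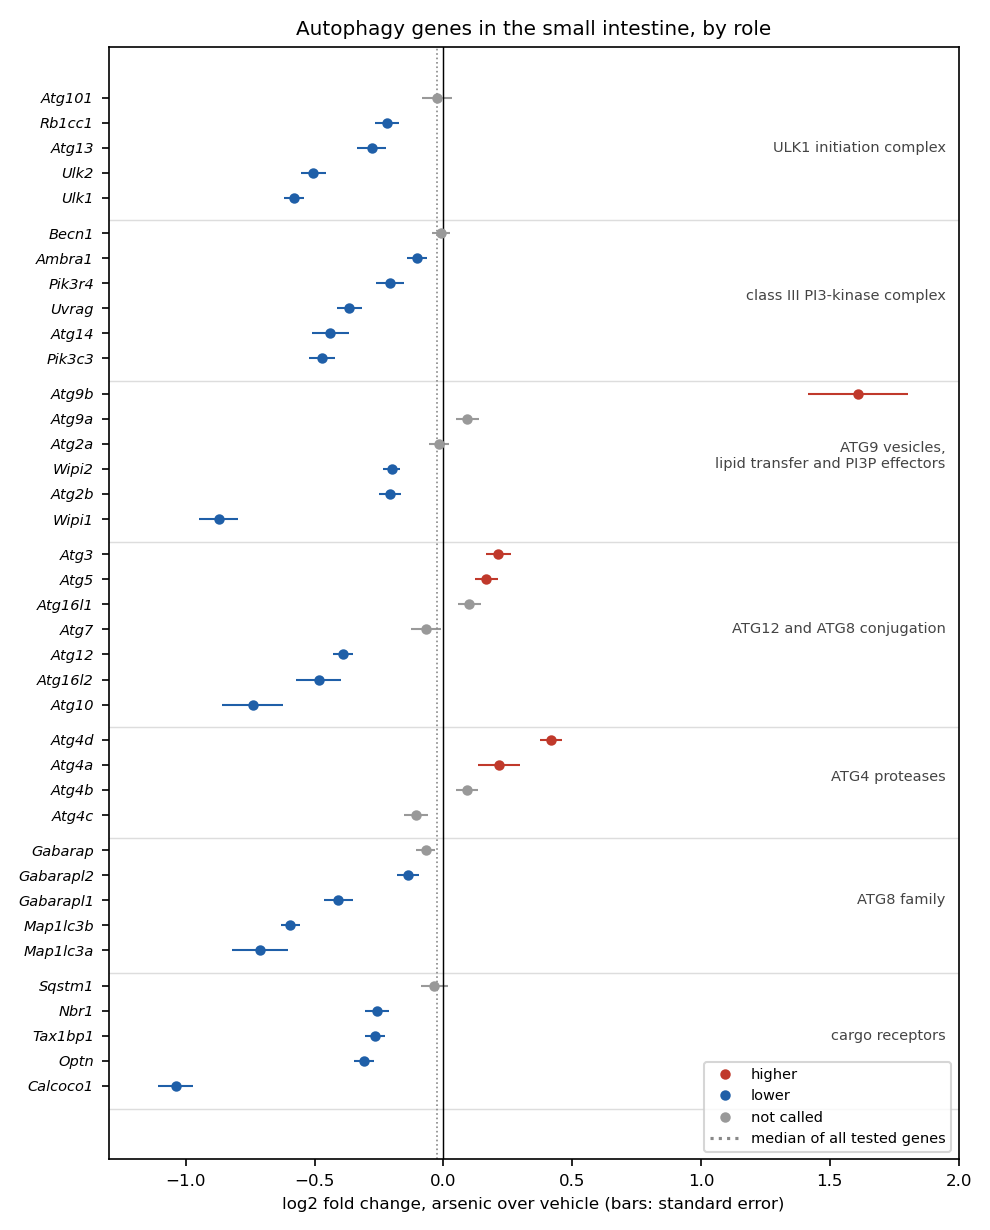
Log2 fold change, arsenic over vehicle, of each of the 38 autophagy genes with its standard error (4 pools per group), grouped by role. Blue points were called lower, red points higher and grey points neither at an adjusted p below 0.05, and the dotted line is the median of all tested genes. Points of the ULK1 complex, the lipid kinase complex, the ATG8 family and the cargo receptors lie at or left of 0, and red points appear only in the other 3 groups.

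The total counts per pool ran from 22630208 to 29417666 with arsenic and from 18786779 to 27369320 with vehicle. Enterocyte markers were abundant, with 7 genes summing to between 16570 and 19310 CPM in arsenic pools and between 18770 and 22520 CPM in vehicle pools. Of them 3 were called higher and 3 lower (42.9% each). For this and the marker counts below, the background was 32.3% higher and 33.0% lower among all tested genes. Sums of some other cell types moved between the groups. Endothelial markers (5 genes, all called lower) summed to 236 to 251 CPM with arsenic and 325 to 356 CPM with vehicle, and macrophage markers (7 genes, 5 called lower) to 204 to 243 CPM and 314 to 322 CPM. T cell markers (5 genes, all 4 tested called lower) summed to 8.68 to 10.3 CPM with arsenic and 15.9 to 16.7 CPM with vehicle. For B or plasma cell markers (5 genes, all called lower) the sums overlapped, with 17.4 to 22.01 CPM and 21.4 to 30.3 CPM. Smooth muscle markers (6 genes, all called higher) went the other way, with 2180 to 2655 CPM with arsenic and 1826 to 2016 CPM with vehicle. Sums also overlapped between groups for goblet cells (6 genes, 5086 to 6197 CPM with arsenic and 5079 to 5998 CPM with vehicle). Paneth cell sums did so too (6 genes, 545 to 619 CPM and 575 to 660 CPM, again with arsenic first). So did fibroblast sums (6 genes, 2549 to 2918 CPM and 2601 to 2889 CPM). Of these markers, 3 goblet genes were called higher (50%) and 1 lower (16.7%). For Paneth cells 1 tested gene was higher (20%) and 2 were lower (40%). For fibroblasts 2 genes were lower (33.3%), which is near the background. The neuron and glia list (7 genes) summed to 62.2 to 72.4 CPM with arsenic and 121 to 128 CPM with vehicle. Only 2 of its genes were called lower (28.6%), a share also near the background. No listed marker that the table holds was at 0 in every pool. In whole tissue, fewer cells of a type and less RNA per cell cannot be told apart, and the part of these shifts in the autophagy results was not tested. Pools also differed in sex makeup within both groups: the sum of 4 Y-linked genes ran from 59.1 to 199 CPM with arsenic and from 0.531 to 138 CPM with vehicle. Leaving out arsenic replicate 3 and vehicle replicate 4, the pools at those extremes, gave 21 autophagy genes lower and 5 higher.

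In the complex that starts autophagy 4 of 5 genes were called lower (80%) and none higher, beside 33.0% and 32.3% of all tested genes. Ulk1, the kinase that receives the starvation signal, had 41.5, 43.2, 42.3 and 42.4 CPM in the arsenic pools, against 60.8, 62.4, 66.5 and 63.7 CPM in the vehicle pools. The arsenic pools lay within 2 CPM of each other and all below the vehicle pools, and Ulk1 fell by 0.58 on the log2 scale (SE 0.04, adjusted p = 5.54e-09), 1.49-fold lower. Its close relative Ulk2 averaged 28.2 ± 1.30 CPM with arsenic and 40.03 ± 1.445 CPM with vehicle (SD, n = 4 each) and fell by 0.50 (SE 0.05, adjusted p = 2.65e-07). The scaffold subunits Atg13 and Rb1cc1, also known as FIP200, fell less, by 0.28 and 0.22 on the log2 scale (SE 0.06 and 0.05, adjusted p = 0.00054 and 0.0009). Atg101, the subunit that stabilises ATG13, stood at 16.0 ± 0.120 CPM with arsenic and 16.3 ± 0.926 CPM with vehicle (log2 -0.02, SE 0.06, adjusted p = 0.731).

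In the VPS34 lipid kinase complex 5 of 6 genes were called lower (83.3%, beside 33.0% of all tested genes). The exception was its best known subunit. Becn1, which codes for Beclin 1, had 104, 109, 110 and 107 CPM with arsenic, against 106, 107, 113 and 107 CPM with vehicle. The groups overlapped (log2 -0.01, SE 0.04, adjusted p = 0.826), and the sign of this value turned in 5 of the 15 alternative fits. By the annotation 43.9% of the exon bases of Becn1 are shared with Cntd1 on the opposite strand, which had 312 counts over all pools. The kinase gene Pik3c3 itself, which codes for VPS34, fell to 27.8 ± 1.21 CPM with arsenic, against 38.5 ± 1.97 CPM with vehicle (log2 -0.47, SE 0.05, adjusted p = 1.03e-06). Its regulatory subunit Pik3r4, also called VPS15, fell by 0.21 (SE 0.05, adjusted p = 0.003915). Atg14, which directs the complex to sites of autophagosome formation, fell by 0.44 (SE 0.07, adjusted p = 7.48e-05). Uvrag, which takes the place of ATG14 in the endosomal form of the complex, fell by 0.36 (SE 0.05, adjusted p = 7.53e-06). Both alternative subunits thus fell. Ambra1, a scaffold that links Beclin 1 with other regulators, fell by 0.10 (SE 0.04, adjusted p = 0.0271). That call ended in 9 of 15 alternative fits (adjusted p up to 0.131), including each fit that left out one of the vehicle replicates 2, 3 and 4 or one of the arsenic replicates 1 and 4.

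Genes for membrane supply and for reading the PI3P mark were divided. Wipi1, a PI3P-binding protein of the growing membrane on chromosome 11 (109573331 to 109611967, minus strand, mm10), had 15.7, 16.8, 19.1 and 20.99 CPM in arsenic pools. In vehicle pools it had 34.7, 32.0, 34.4 and 31.6 CPM. The groups were far apart, with the highest arsenic pool over 10 CPM below the lowest vehicle pool, and Wipi1 fell by 0.87 on the log2 scale (SE 0.08, adjusted p = 1.01e-07), 1.83-fold lower. Wipi2, the relative that recruits the ATG16L1 conjugation complex, fell by 0.20 (SE 0.03, adjusted p = 9.25e-05), to 77.5 ± 1.13 CPM with arsenic, against 89.1 ± 2.17 CPM with vehicle. Of the lipid transfer proteins, Atg2b fell by 0.21 (SE 0.04, adjusted p = 0.000512) and Atg2a stood at 49.9 ± 1.83 CPM with arsenic and 50.5 ± 1.09 CPM with vehicle (log2 -0.02, SE 0.04, adjusted p = 0.724). Atg9a, the membrane protein of the vesicles that seed the autophagosome, averaged 89.8 ± 4.54 CPM with arsenic and 84.1 ± 3.41 CPM with vehicle and missed the threshold (log2 0.09, SE 0.04, adjusted p = 0.0732). Dropping the third vehicle pool brought its adjusted p to 0.03, and dropping the third arsenic pool brought it to 0.0107. It was 0.0278 without the 2 pools at the sex-marker extremes and 0.032 without a filter on low counts.

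Atg9b, the rarer relative of Atg9a, showed the largest relative rise and the lowest level of the set. It had 2.25, 1.70, 2.49 and 2.14 CPM with arsenic, against 0.620, 0.672, 0.639 and 0.917 CPM with vehicle. These are 63, 40, 75 and 48 counts in arsenic pools and 17, 18, 12 and 19 counts in vehicle pools, so that the values rest on few reads. Every arsenic pool was above every vehicle pool, and the fitted rise was 3.05-fold (log2 1.61, SE 0.19, adjusted p = 3.60e-06). Atg9b (chromosome 5, 24384181 to 24392143, minus strand) shares 7.5% of its exon bases with Nos3, the endothelial nitric oxide synthase, on the opposite strand. Nos3 fell, with 10.9 CPM with arsenic and 14.0 CPM with vehicle (log2 -0.37, adjusted p = 0.000855). The libraries were stranded per the labels, but no source used here gives the strand setting of the counting. In all 14 of the 38 genes share exon bases with another annotated gene, among them Gabarapl1 (28.3%), Uvrag (17.6%) and Sqstm1 (17.3%) on the opposite strand and Atg9a (31.8%) on the same strand.

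The conjugation genes went both ways, with 2 of 7 called higher (28.6%) and 3 lower (42.9%). These shares were not far from the 32.3% and 33.0% of all tested genes. Atg3, the E2 enzyme that passes ATG8 proteins to the membrane lipid, had 72.7, 72.3, 67.1 and 67.8 CPM with arsenic, against 64.0, 61.4, 61.0 and 54.8 CPM with vehicle. The groups were separate, and Atg3 rose by log2 0.21 (SE 0.05, adjusted p = 0.00118). Atg5, whose product is joined to ATG12, had 49.7, 48.9, 49.5 and 51.6 CPM with arsenic, against 42.9, 43.1, 48.5 and 43.8 CPM with vehicle. The groups did not overlap, although vehicle replicate 3 came close to the arsenic pools, and Atg5 rose by log2 0.17 (SE 0.04, adjusted p = 0.00439). Its partner moved in the opposite direction: Atg12, the ubiquitin-like protein that is attached to ATG5, fell by 0.39 (SE 0.04, adjusted p = 4.05e-07), to 41.8 ± 0.877 CPM with arsenic, against 54.8 ± 1.77 CPM with vehicle.

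Atg10, the E2 enzyme that attaches ATG12, fell furthest in this group. It had 5.32, 5.44, 4.91 and 6.61 CPM with arsenic, against 8.31, 11.2, 9.005 and 8.35 CPM with vehicle. The pools did not overlap, and the fall was 0.74 on the log2 scale (SE 0.12, adjusted p = 5.63e-05). Atg7, the E1 enzyme that activates both ATG12 and the ATG8 proteins, had 19.4, 19.8, 18.3 and 20.4 CPM with arsenic, against 18.8, 21.1, 20.4 and 21.2 CPM with vehicle. These ranges overlapped over most of their width (log2 -0.07, SE 0.06, adjusted p = 0.332). Atg16l1, the subunit that places the ATG12-ATG5 conjugate on the membrane and a gene linked to human Crohn's disease, had 33.6, 33.4, 32.3 and 31.6 CPM with arsenic. Its vehicle pools had 31.0, 30.3, 31.6 and 29.4 CPM. The highest vehicle pool reached almost to the lowest arsenic pool, and the difference missed the threshold (log2 0.10, SE 0.04, adjusted p = 0.0618). Dropping vehicle replicate 3 gave an adjusted p of 0.0325, and dropping arsenic replicate 4 gave 0.0326. The related Atg16l2 was far scarcer and fell by 0.48 (SE 0.09, adjusted p = 0.00019), to 5.03 ± 0.243 CPM with arsenic, against 7.02 ± 0.423 CPM with vehicle.

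The ATG4 proteases trim new ATG8 proteins and later cut them from the membrane. In the reported fit 2 of 4 were called higher (50%, beside 32.3% of all tested genes) and none lower. Of these 2 calls only that of Atg4d held in every alternative fit. Atg4d (chromosome 9, 21265293 to 21277772, plus strand) had 65.6, 67.6, 64.0 and 60.2 CPM with arsenic, against 47.2, 49.6, 47.6 and 48.4 CPM with vehicle. The groups were more than 10 CPM apart, and Atg4d rose 1.335-fold (log2 0.42, SE 0.04, adjusted p = 4.46e-07). Of its exon bases 19.3% are shared with Kri1 on the opposite strand, and Kri1 stood at 31.7 CPM with arsenic and 30.6 CPM with vehicle (adjusted p = 0.42). Atg4a had 7.50, 7.86, 7.46 and 7.46 CPM with arsenic, against 6.34, 6.95, 5.92 and 6.80 CPM with vehicle. All arsenic pools were above all vehicle pools, and it rose by log2 0.21 (SE 0.08, adjusted p = 0.0316). This call was lost in 7 of 15 alternative fits, namely DESeq2, upper-quartile scaling, without the 2 pools at the sex-marker extremes, and each fit that dropped one of the replicates 1 and 3 of vehicle or 1 and 2 of arsenic (adjusted p up to 0.0729). Atg4b, the main ATG4 of most mammalian cells, averaged 48.9 ± 2.18 CPM with arsenic and 45.9 ± 1.35 CPM with vehicle (log2 0.09, SE 0.04, adjusted p = 0.0746). Its adjusted p was 0.0292 when vehicle replicate 2 was dropped and 0.0212 when arsenic replicate 4 was. Atg4c averaged 21.1 ± 0.356 CPM with arsenic and 22.7 ± 0.615 CPM with vehicle (log2 -0.11, SE 0.05, adjusted p = 0.0644). It was called lower with upper-quartile scaling (adjusted p = 0.0275).

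ATG8 proteins are the substrates of these proteases. The last 30 bases of each coding sequence, stop codon included, are shown because they hold the site of ATG4 cutting (mm10, coding strand, transcripts of GENCODE M21, from chromosomes 2, 8, 11, 6 and 8 in the order printed). Capitals mark the last glycine codon, behind which ATG4 cuts and through which the protein is joined to the membrane lipid.
Map1lc3a: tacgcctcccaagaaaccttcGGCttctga
Map1lc3b: gagacattcGGGacagcaatggctgtgtaa
Gabarap: tacagtgatgaaagcgtctatGGTctgtga
Gabarapl1: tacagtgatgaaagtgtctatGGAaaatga
Gabarapl2: tacagcggagagaacacttttGGCttctga
The glycine is codon 120 in both LC3 genes and codon 116 in the 3 GABARAP genes. Map1lc3b codes for 5 residues behind it, and each of the others for 1.

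All 5 ATG8 genes had a log2 change below 0 and 4 were called lower (80%), beside 52.5% and 33.0% of all tested genes. Map1lc3b, whose product LC3B is the usual marker of autophagosomes (chromosome 8, 121590361 to 121598760, plus strand), had 75.7, 74.5, 76.6 and 78.6 CPM with arsenic. Its vehicle pools had 110, 115, 121 and 115 CPM. No pool came near the other group, and Map1lc3b fell by 0.59 on the log2 scale (SE 0.04, adjusted p = 2.62e-09), 1.51-fold lower. Map1lc3a, coding for LC3A (chromosome 2, 155276297 to 155278073, plus strand), had 17.3, 15.3, 19.1 and 12.5 CPM with arsenic, against 22.1, 28.9, 27.5 and 27.8 CPM with vehicle. Its pools were more scattered, with coefficients of variation of 17.6% with arsenic and 11.5% with vehicle, but they did not overlap. It fell by 0.71 (SE 0.11, adjusted p = 4.03e-05).

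The changes of the GABARAP genes were nearer to 0. Gabarapl1 had 32.0, 28.9, 29.9 and 28.1 CPM with arsenic, against 38.1, 37.6, 39.3 and 43.4 CPM with vehicle, and fell by 0.41 (SE 0.06, adjusted p = 1.30e-05). Gabarapl2 had 39.5, 36.8, 37.2 and 39.8 CPM with arsenic, against 41.5, 41.3, 43.9 and 42.3 CPM with vehicle. It fell by 0.14 (SE 0.04, adjusted p = 0.011), a call that ended without vehicle replicate 3 (adjusted p = 0.0535) and without the 2 pools at the sex-marker extremes (adjusted p = 0.0579). Gabarap, the most abundant ATG8 transcript, had 289, 288, 292 and 292 CPM with arsenic, against 293, 308, 312 and 304 CPM with vehicle. The arsenic pools were all just below the vehicle pools, but the difference missed the threshold (log2 -0.07, SE 0.04, adjusted p = 0.121). It passed with upper-quartile scaling (adjusted p = 0.029).

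Set against exon length, Gabarap made up most of the family in both groups. In CPM per kilobase of exon, the level of Gabarap was 157 ± 1.14 with arsenic and 165 ± 4.29 with vehicle, and the other members stood between 10.2 and 16.5 with arsenic and between 15.3 and 22.5 with vehicle. Gabarap therefore held 74.1% ± 0.976 of the summed per-length level of the 5 genes in arsenic pools and 68.6% ± 0.676 in vehicle pools (SD, n = 4 each). The share of Map1lc3b was 4.78% ± 0.126 with arsenic and 6.37% ± 0.100 with vehicle, and that of Map1lc3a 6.39% ± 1.05 and 9.33% ± 0.820. The summed level was 212 ± 3.07 CPM per kilobase with arsenic and 241 ± 7.81 with vehicle. Lengths are the merged exons of all annotated transcripts, and a gene with long, rarely used exons is placed too low on this scale.

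Among the cargo receptors 4 of 5 fell (80%, beside 33.0% of all tested genes), and p62 was the exception. Calcoco1, a receptor described for turnover of the endoplasmic reticulum (chromosome 15, 102706777 to 102722178, minus strand), had 18.04, 16.2, 20.3 and 21.1 CPM with arsenic. In vehicle pools it had 37.0, 39.3, 39.5 and 39.9 CPM. This was the largest fall of the set, 1.04 on the log2 scale (SE 0.07, adjusted p = 5.57e-09), 2.06-fold lower and without overlap. Sqstm1, which codes for the ubiquitin-binding receptor p62, had 176, 152, 165 and 157 CPM with arsenic, against 154, 167, 176 and 172 CPM with vehicle. Both groups spanned nearly the same range (log2 -0.04, SE 0.05, adjusted p = 0.569), and no alternative fit brought Sqstm1 past the threshold. Nbr1, a receptor that works together with p62, fell to 207 ± 9.61 CPM with arsenic, against 248 ± 14.4 CPM with vehicle (log2 -0.26, SE 0.05, adjusted p = 0.000249). Optn, coding for optineurin, fell by 0.31 (SE 0.04, adjusted p = 6.18e-06). Tax1bp1, the receptor with the highest CPM here, fell by 0.26 (SE 0.04, adjusted p = 3.46e-05), to 311 ± 4.74 CPM with arsenic, against 374 ± 12.2 CPM with vehicle.

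**Figure D2:**
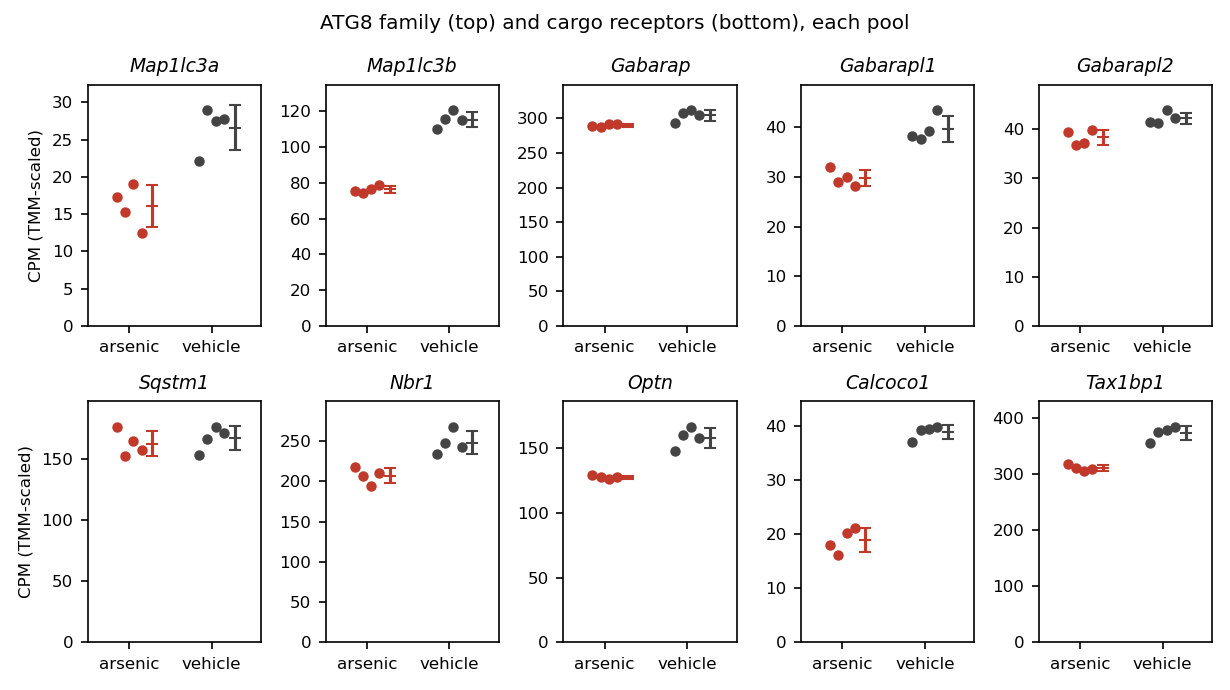
TMM-scaled CPM of the 5 ATG8 genes and the 5 cargo receptors in each arsenic pool (left, red) and vehicle pool (right, dark), with mean and SD beside the points. The groups do not overlap for any gene but Sqstm1, though for Gabarap they nearly touch. The Sqstm1 points of both groups cover the same range (152 to 176 CPM with arsenic and 154 to 176 CPM with vehicle).

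Related genes of one role were compared directly. For 8 pairs the log2 ratio of both genes within a pool was compared between groups by an exact permutation test (two-sided, smallest possible p = 0.0286, adjusted over the 8 pairs), a measure that library scaling hardly touches. The ratio differed for 5 pairs, each at that smallest p (adjusted p = 0.0457). An adjusted p at this floor depends on how many of the 8 pairs reach it. The pairs were chosen with earlier results of these data known, so these p-values are no independent evidence. Wipi1 over Wipi2 had a log2 ratio of -2.10 ± 0.17 with arsenic and -1.42 ± 0.07 with vehicle. For Atg16l1 over Atg16l2 it was 2.69 ± 0.03 with arsenic and 2.11 ± 0.10 with vehicle, and for Atg4c over Atg4d it was -1.61 ± 0.06 and -1.09 ± 0.04. Gabarapl1 over Gabarapl2 had -0.37 ± 0.09 with arsenic and -0.10 ± 0.09 with vehicle, and Atg2a over Atg2b had -0.82 ± 0.05 and -1.01 ± 0.06. In these 5 pairs all 4 arsenic pools lay on one side of all 4 vehicle pools.

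The remaining 3 pairs did not pass. Atg4a over Atg4b was at -2.68 ± 0.05 with arsenic and -2.81 ± 0.09 with vehicle (adjusted p = 0.0762 in the exact permutation test). Ulk1 over Ulk2 was at 0.58 ± 0.08 and 0.66 ± 0.08 (adjusted p = 0.196), and Map1lc3a over Map1lc3b at -2.26 ± 0.28 and -2.12 ± 0.14 (adjusted p = 0.486). Equal change within these pairs is not shown by that.

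**Figure D3:**
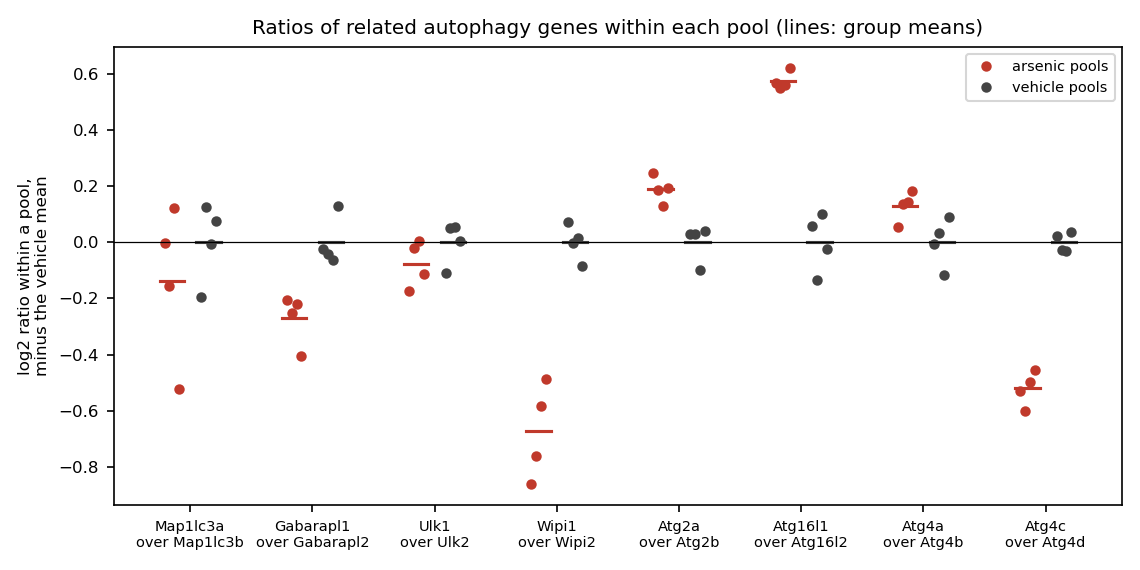
Log2 ratio of 2 related genes within each pool, minus the mean of the vehicle pools, for 8 pairs. Red points are the 4 arsenic pools and dark points the 4 vehicle pools, and lines are group means. Wipi1 over Wipi2, Gabarapl1 over Gabarapl2 and Atg4c over Atg4d lie below 0 in all arsenic pools, and Atg16l1 over Atg16l2 and Atg2a over Atg2b lie above it.

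Promoters were searched because the transcription factor TFEB, which binds sequences around CACGTG, is known to drive autophagy and lysosome genes. RefSeq promoters (GRCm38.p6, 300 bases around a transcript start in RefSeq) were matched for 32 of the 38 genes. Such a start need not be the outermost one of the gene. For Atg7 it lies 27999 bases and for Atg14 2215 bases inside the gene as GENCODE annotates it, for Atg3 44 bases inside, and for Atg5 19 bases outside. CACGTG, which reads the same on both strands, was found in those of Atg3, Atg5, Atg7 and Atg14, 12.5% of the matched genes, against 8.09% of all genes with such a promoter. Windows of 46 bases around the motif are given in the direction of the gene, with CACGTG in capitals.
Atg3, first site, chr16:45158715-45158760, plus strand: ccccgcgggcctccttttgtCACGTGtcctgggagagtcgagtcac
Atg3, second site, chr16:45158738-45158783, plus strand: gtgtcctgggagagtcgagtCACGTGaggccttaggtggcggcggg
Atg5, chr10:44268305-44268350, plus strand: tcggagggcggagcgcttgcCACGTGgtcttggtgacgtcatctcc
Atg7, chr6:114670944-114670989, plus strand: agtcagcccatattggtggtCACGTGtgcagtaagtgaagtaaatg
Atg14, chr14:47568410-47568455, minus strand: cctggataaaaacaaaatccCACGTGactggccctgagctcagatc
The genes that carry it did not move alike, since Atg3 and Atg5 rose, Atg14 fell and Atg7 passed in neither direction. The longer GTCACGTG, searched on both strands and always overlapping a CACGTG, was found for 3 of the 32 genes, against 2.55% of all genes. These were Atg3, Atg7 and Atg14, and for Atg7 and Atg14 the window is the one at the inner start given above. No difference in these shares was tested. The sequence TGACNNNGC, the core of the antioxidant response element, was found on either strand for 4 of the 32 genes (Atg13, Map1lc3b, Tax1bp1 and Ulk2), against 14.0% of all genes. A match is a string of letters in a window and not a bound site.

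In a list of 39 genes of mTORC1, AMPK and TFEB control 11 were called higher (28.2%) and 19 lower (48.7%), beside 32.3% and 33.0% of all tested genes, with a median log2 change of -0.08. Of the 5 listed subunits of mTORC1, the growth kinase complex that holds autophagy back, 4 rose. These were the kinase Mtor (log2 0.21, adjusted p = 6.21e-05), its partners Rptor (log2 0.33, adjusted p = 2.53e-05) and Mlst8 (log2 0.21, adjusted p = 0.000928), and the inhibitory subunit Akt1s1 (log2 0.36, adjusted p = 2.005e-07). The other inhibitory subunit, Deptor, missed the threshold (log2 -0.06, adjusted p = 0.284). Tfeb fell to 33.6 ± 2.36 CPM with arsenic, against 59.1 ± 1.82 CPM with vehicle, 1.75-fold lower (log2 -0.81, SE 0.05, adjusted p = 2.44e-09). Sesn2, a leucine-sensing inhibitor of mTORC1, fell by 0.89 (SE 0.06, adjusted p = 3.10e-09). Flcn and Rragd, coding for folliculin and a small GTPase of the lysosomal amino acid sensor, fell by 0.71 and 0.70 on the log2 scale (adjusted p = 3.29e-09 and 4.81e-08). Of the genes named here Mtor, Rptor, Mlst8 and Deptor were singled out after their values were seen.

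In a list of 24 genes for autophagosome formation and fusion, 14 were called lower (58.3%) and 5 higher (20.8%), with the same background of 33.0% and 32.3% and a median log2 change of -0.17. Wdr45, a relative of the WIPI genes, fell by 0.73 (SE 0.08, adjusted p = 1.02e-06), and Zfyve1, whose product marks the sites of autophagosome formation, by 0.51 (SE 0.05, adjusted p = 8.43e-07). The tether subunit Vps39 and the SNARE gene Vamp8, which serve fusion with the lysosome, fell by 0.28 and 0.26 (SE 0.04 each, adjusted p = 5.96e-06 and 1.60e-05). Ykt6, a SNARE gene that also serves secretion, rose to 165 ± 3.96 CPM with arsenic, against 130 ± 3.49 CPM with vehicle (log2 0.35, SE 0.04, adjusted p = 4.55e-07).

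Among receptors for single organelles and cargoes (18 listed genes), 9 were called lower (50%) and 5 higher (27.8%), beside 33.0% and 32.3% of all tested genes, with a median log2 change of -0.21. Ncoa4, the receptor that delivers ferritin to the lysosome, fell to 110 ± 10.3 CPM with arsenic, against 222 ± 16.2 CPM with vehicle, 2.01-fold lower (SE 0.07 on the log2 scale, adjusted p = 4.05e-09). Pink1, the kinase that labels damaged mitochondria, fell to 58.2 ± 1.70 CPM with arsenic, against 115 ± 9.50 CPM with vehicle, 1.98-fold lower (adjusted p = 6.32e-10). The endoplasmic reticulum receptors Ccpg1 and Tex264 fell by 0.80 and 0.61 (adjusted p = 3.25e-09 and 1.96e-08). Phb2, a prohibitin of the inner mitochondrial membrane that also has general mitochondrial roles, rose 1.69-fold, to 288 ± 7.55 CPM with arsenic, against 170 ± 8.202 CPM with vehicle (adjusted p = 8.74e-10).

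At the receiving end, 19 of 20 lysosomal genes listed as TFEB targets were called lower (95%) and 1 higher (5%). Over all tested genes 33.0% were called lower and 32.3% higher. The gene called higher was the proton pump subunit Atp6v1h, named after its value was seen. The median log2 change of the list was -0.59. Hexa, which codes for a lysosomal glycosidase, fell by 1.18 on the log2 scale, Ctsa and Neu1, the protective protein and the sialidase, by 0.96 and 0.95, and the protease gene Ctsb by 0.84 (SE 0.04 to 0.05, adjusted p = 2.03e-11 for Hexa and 5.69e-10 for Ctsb). Whether the median of this list differs from that of the autophagy genes was not tested.

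**Figure D4:**
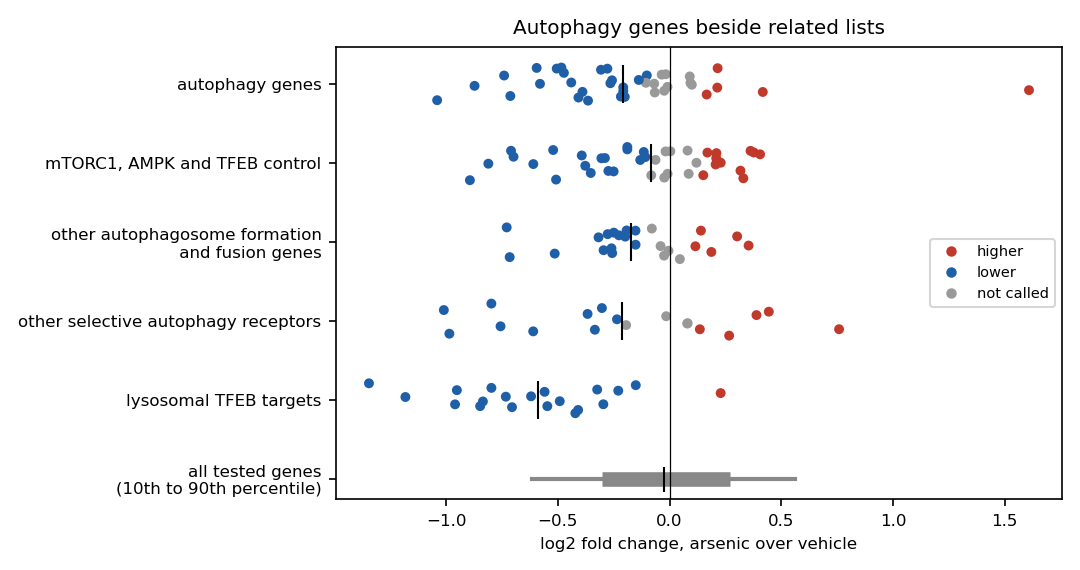
Log2 fold change, arsenic over vehicle, of each gene in the autophagy set and in 4 related lists, with the list median as a vertical tick and calls in colour. For all tested genes the thick bar covers the 25th to the 75th percentile (-0.30 to 0.27), the thin bar the 10th to the 90th (-0.61 to 0.56). The medians are -0.21, -0.08, -0.17, -0.21 and -0.59 from top to bottom, and -0.03 for all genes.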

How the data were processed

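Per the labels' protocols, RNA came from TRIzol extraction and the library kit was Illumina's stranded mRNA preparation. The submitters' processing notes name bcl2fastq 2.20, STAR 2.7.9a, DESeq2 1.34.0 and the mm10 build. No source used here gives the read counter, its annotation or its strand setting. The authors deposited raw counts per gene symbol, which were the input of every test, and a table of log2 fold changes with p-values. Their normalized and regularized log tables were not used. For the autophagy genes the log2 values of the authors' deposited table differed from those computed here by at most 0.0153.

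Genes were kept by filterByExpr (minimum count 10, minimum total 15) and scaled by TMM. Groups were compared by edgeR's quasi-likelihood test (edgeR 4.0.16, limma 3.58.1, R 4.3.3, two-sided, Benjamini-Hochberg, threshold 0.05). The test was also run on simulated counts in which only a small part of the genes changed. That run is no check of the TMM scaling where most genes are called, as here. SE is the log2 change divided by the root of its F statistic. Ratios of related genes used log2 CPM with a prior count of 2. Alternatives were DESeq2 1.42.0, upper-quartile scaling, other filters, limma-voom, a Y-linked covariate and left-out pools. Each pair of pools of a group differed beyond counting noise, with chi-square over its degrees of freedom between 3.07 and 14.1. P-values set the difference between groups against the spread between pools of 3 mice, and not between single animals. Positions and exon overlaps came from GENCODE M21. Of the 24411 symbols 4894 had no count.

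Every autophagy gene is named, and values in each pool are given for the 6 largest called falls, the 5 called rises and a fixed panel of 11 genes. For other genes group means were added to the planned log2 change, SE and adjusted p. For each related list the 5 genes with the smallest p could be named. One such gene is not reported here. Genes, lists and pairs were chosen with earlier results of these data known. Neither their direction nor the p-values of the pairs are therefore independent evidence. Listed symbols that the table lacks were matched to older ones (5 of 6).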

Additional observations from a re-analysis of the deposited data

Results flagged for a closer look

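In 116 groups of 4 pools 9 had a single pool set apart from the other 3 by more than Dixon's 95% limit, where chance gives about 1 in 20 groups. With arsenic, replicate 4 was high for Pik3r4 at 35.3 CPM (the others 30.1 to 30.7) and for Wipi2 at 79.2 CPM (the others 76.8 to 77.1), and replicate 2 was high for Atg4a at 7.86 CPM (the others 7.46 to 7.50). With vehicle, replicate 3 was high for Becn1 at 113 CPM (the others 106 to 107) and for Atg5 at 48.5 CPM (the others 42.9 to 43.8). Vehicle replicate 4 was high for Atg101 at 17.7 CPM (the others 15.7 to 15.9). Vehicle replicate 2 was high for Atg16l2 at 7.66 CPM (the others 6.77 to 6.85) and for Atg4b at 47.9 CPM (the others 45.1 to 45.4). Vehicle replicate 1 was low for Pink1 at 101 CPM (the others 118 to 122).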

How the results depend on the processing

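Of the 28 called autophagy genes 25 kept direction and call in every alternative fit run, the exceptions being Ambra1, Atg4a and Gabarapl2. Over the alternatives 21 to 25 genes were lower, against 23 in the reported fit, and the median log2 change lay between -0.24 and -0.18. The number called higher was 8 without a filter on low counts, against 5 as reported, since Atg9a, Atg16l1 and Atg4b then passed as well. With 1 pool left out it ranged from 4 to 7.

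Turned signs concerned only uncalled genes near 0. Atg101 stood at log2 0.009 with the Y-linked covariate, at 0.013 without the 2 pools at the sex-marker extremes, and between -0.036 and 0.028 with single pools left out. Becn1 stood at 0.003 in DESeq2 and 0.01 without a filter, and between -0.019 and 0.024 with single pools left out. Atg2a stood at 0.003 without a filter and 0.006 without the 2 sex-marker pools, and between -0.037 and 0.007 with single pools left out. Sqstm1 lay between -0.076 and 0.004 with single pools left out. Upper-quartile scaling gave a median over all genes of -0.05 and DESeq2 one of -0.01, against -0.03 as reported. The differences in the 8 ratios of related genes kept their sign with a prior count of 0.5 and with each pool left out. Their p-values say nothing about stability, since the 5 separated pairs stand at the smallest p allowed. No paired analysis was possible because replicate numbers only name the pools. Depth limits mainly Atg9b, with 12 to 19 counts in vehicle pools.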
